A study of Mus musculus with 6 samples.

Results

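The urokinase system, the tissue inhibitors of metalloproteinases (TIMPs) and the sheddases ADAM10 and ADAM17 were taken as 9 genes by symbol (Plau, Plaur, Plat, Serpinb2, Timp1, Timp2, Timp3, Adam10 and Adam17), and all 9 were found among the 20938 genes of the table. RNA was sequenced from RAW264.7, a line of mouse macrophage-like cells that become multinucleated, bone-resorbing osteoclasts when induced. Osteoclast formation was induced in all 6 samples: 3 were given the isoflavone neobavaisoflavone (NBIF) from a plant, at 8 µM, and 3 received the solvent DMSO. The comparison bears on how NBIF acts on cells that are forming osteoclasts. It uses a single immortalised line, the labels give bone marrow as its source, and neither the inducing agent nor the length of treatment is stated in the labels. Whether replicates are separate cultures is also not stated, so the p-values reflect the spread between these samples and that spread may be technical.

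Urokinase, encoded by Plau, is a secreted serine protease that turns plasminogen into plasmin, a broad protease that degrades matrix and activates other proteases. The urokinase receptor, encoded by Plaur, holds it at the cell surface, Plat encodes the other plasminogen activator (tissue type), and Serpinb2 encodes plasminogen activator inhibitor type 2. TIMPs block matrix metalloproteinases and, in the case of TIMP3, also ADAM17. ADAM10 and ADAM17 are membrane-bound proteases that cut the outer parts of other membrane proteins free, and ADAM17 is the main enzyme that releases tumour necrosis factor.

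With NBIF, the transcripts of urokinase, TIMP2 and ADAM17 were lower than with DMSO, that of the urokinase receptor was slightly lower by a call that most alternatives lost, and that of ADAM10 did not pass the test. Plau averaged 94.0 ± 15.3 FPKM with NBIF and 177 ± 20.8 FPKM with DMSO (SD, n = 3 each). FPKM are fragments scaled to gene length and to the number of fragments sequenced, so levels of different genes can be set side by side as far as the gene lengths behind the values hold, and these lengths are uncertain here. Timp2 averaged 6.27 ± 0.879 FPKM with NBIF and 10.01 ± 1.21 FPKM with DMSO, and Adam17 averaged 30.1 ± 1.201 and 42.8 ± 1.86 FPKM. The other 4 members (Plat, Serpinb2, Timp1 and Timp3) were close to 0 in both groups.

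Testing with limma on log2(FPKM + 1) covered every gene whose mean over the samples reached 1 FPKM, with Benjamini-Hochberg adjustment over all 9936 such genes. Of the 5 members that passed this filter, 4 were lower at an adjusted p under 0.05 and 0 were higher, where 8.08% of all genes tested were lower, 10.5% were higher and 18.6% were called in either direction. The count of 4 includes Plaur, whose call was lost under 9 of 16 other settings, each fit without 1 sample and the replicate block among them. All 5 had groups that did not overlap, each lower with NBIF, where 14.3% of genes tested did so and 39% did not overlap in either direction. The calls over all genes were 1047 higher and 803 lower (56.6% higher), and median-ratio scaling of the samples gave 705 higher and 1003 lower (41.3% higher). The median log2 change over all genes tested was 0.04.

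The FPKM sums of the samples were 484603 to 490379 with NBIF and 492217 to 494172 with DMSO. The number of reads cannot be read from FPKM, but the commonest ratio between samples among genes under 0.05 FPKM put the relative depth at 0.886 to 1.09 times that of DMSO 1 (21 to 28 of 449 to 488 genes lay at that ratio). Of 8 macrophage markers, all tested, 7 were lower with NBIF, 0 were higher and 1 did not pass. The summed macrophage markers ranged from 1808 to 1847 FPKM with NBIF and from 2707 to 2932 FPKM with DMSO. Lyz2 had the largest fall in FPKM among them, at 157 ± 9.40 FPKM with NBIF and 746 ± 74.1 FPKM with DMSO. Spi1 was the marker that did not pass (limma adjusted p = 0.157). Of 10 osteoclast markers, 9 were tested, 4 were lower, 1 was higher and 4 did not pass, and their sums were 6023 to 6828 FPKM with NBIF and 7604 to 8199 FPKM with DMSO. The 4 lower markers were Acp5 (means of 340 FPKM with NBIF and 564 FPKM with DMSO), Ctsk (1992 and 2656), Mmp9 (60.4 and 224) and Ocstamp (39.1 and 59.7). The higher marker was Nfatc1, at 286 ± 8.18 FPKM with NBIF and 139 ± 38.6 FPKM with DMSO (log2 change of 1.07, limma adjusted p = 0.00283). The largest part of the sums was Atp6v0d2, which did not pass (3706 ± 167 FPKM with NBIF and 4116 ± 298 FPKM with DMSO, adjusted p = 0.111). Calcr, the calcitonin receptor of mature osteoclasts, was below the filter, at 0.115 ± 0.0349 FPKM with NBIF and 0.238 ± 0.0680 FPKM with DMSO. The part of these shifts in the members' values was not tested, and in bulk RNA fewer cells of a type and less RNA per cell cannot be told apart. The markers of lymphocytes, of endothelial cells and of neutrophils each summed, list by list, to at most 0.309 FPKM in any sample, and Ms4a1, Cd8a, S100a9 and Elane were among those at 0 in all 6. The 9 fibroblast and osteoblast markers summed to 0.776 to 1.25 FPKM with NBIF and 1.00 to 1.40 FPKM with DMSO, and Lum was at 0 in all 6.

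In the GENCODE M21 annotation of the mouse build GRCm38, Plau lies on chromosome 14 (20836660 to 20843385), Plaur on chromosome 7 (24462484 to 24475968), Plat on chromosome 8 (22757727 to 22782844) and Serpinb2 on chromosome 1 (107511423 to 107535478). Timp1 lies on chromosome X (20870166 to 20874735), Timp2 on chromosome 11 (118301069 to 118355740) and Timp3 on chromosome 10 (86300372 to 86349506). Adam10 lies on chromosome 9 (70678997 to 70780229) and Adam17 on chromosome 12 (21323509 to 21373632). All 9 are annotated as protein coding. Timp1 sits inside Syn1 and Timp3 inside Syn3, synapsin genes on the opposite strand, and Timp3 shares 1733 annotated exon bases with Syn3. Serpinb2 shares 291 exon bases with Serpinb10, which lies on its own strand, so reads there could belong to either gene. Adam17 shares 311 exon bases at its end with Iah1 on the opposite strand. The sources used here give no strand setting for the counting, so reads from these stretches cannot be assigned to a strand.

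Plaur and Adam10 are shown by the 250 bases before their RefSeq start (GRCm38.p6). Plaur was the only called member whose window could be printed, and Adam10 did not pass the test. Plau and Plat had no window. The windows of Timp2, Timp3 and Adam17, and a window of Serpinb2, overlap an annotated exon and are not printed. The windows shown are chr7:24462233-24462482 and chr9:70678732-70678981, both on the plus strand. Each is written 5′ to 3′ with matches to 4 motifs in capitals. The motifs, sought on both strands, were TGANTCA (AP-1), TGACNNNGC (the core of the antioxidant response element bound by NRF2), CACGTG (an E-box bound by MITF and TFE factors) and GAGGAA (PU.1). The AP-1 and antioxidant letters can overlap.
Plaur: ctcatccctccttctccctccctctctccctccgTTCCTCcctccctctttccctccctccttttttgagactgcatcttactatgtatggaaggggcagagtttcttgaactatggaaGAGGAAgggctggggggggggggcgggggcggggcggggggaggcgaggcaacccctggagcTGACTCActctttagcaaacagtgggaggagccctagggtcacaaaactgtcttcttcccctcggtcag
Adam10: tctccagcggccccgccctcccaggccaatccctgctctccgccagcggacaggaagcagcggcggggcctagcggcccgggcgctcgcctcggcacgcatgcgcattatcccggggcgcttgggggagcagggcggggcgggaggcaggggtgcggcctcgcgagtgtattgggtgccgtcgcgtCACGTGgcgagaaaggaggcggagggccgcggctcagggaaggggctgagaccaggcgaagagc
The Plaur window held TGACTCA at 69 to 63 bases before the start and GAGGAA on each strand, at 131 to 126 and 216 to 211 bases before it. The Adam10 window held CACGTG at 64 to 59 bases before the start, and the Adam17 window held 0 matches. Of 7 members with a window (8 windows, of which Serpinb2 has a pair), Timp2 held the antioxidant core (152 to 144 bases before its RefSeq start). The Timp2 window lies within the Timp2 gene as annotated in GENCODE M21, so by that annotation this match is not upstream of the gene. Serpinb2 held TGAATCA, and Timp1 and Timp3 held 0 matches. Among 32851 windows of the same length, 6.75% held the AP-1 letters, 10.2% the antioxidant core, 6.02% the E-box and 23.3% the PU.1 letters. These are matches of letters, not sites shown to be bound.

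On the FPKM scale, whose gene lengths are uncertain, the order of levels was the same in all 6 samples: Plau was the most abundant of the members, followed by Adam10, Adam17, Plaur and Timp2. Over the 6 samples, 94.0% of genes tested had a lower mean level than Plau, 84.4% had a lower one than Adam10, 75.0% than Adam17, 45.5% than Plaur and 33.6% than Timp2. Each of these 5 genes was above its neighbour in every sample, while the levels of Plat, Timp1, Timp3 and Serpinb2 overlapped at the bottom of the order.

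Among the 5 members tested, the log2 change of Plau was the largest in size. Plau had 79.8, 110.2 and 92.0 FPKM in NBIF 1, 2 and 3, against 165, 201 and 164 FPKM in DMSO 1, 2 and 3. The highest NBIF sample lay well below the lowest DMSO sample, and NBIF 1 was the lowest of all. The mean with NBIF was 0.532 times that with DMSO and the log2 change was -0.91 ± 0.12 (SE, limma adjusted p = 0.00147), and 0.906% of genes tested had a larger absolute change.

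The change of the receptor was smaller in value than that of its ligand. Plaur had 12.3, 10.9 and 11.52 FPKM in the NBIF samples, against 13.5, 14.0 and 13.3 FPKM in the DMSO samples. Its groups were about 1 FPKM apart at their nearest values, and the mean with NBIF was 0.851 times that with DMSO. The log2 change was -0.22 ± 0.06 (SE; limma adjusted p = 0.0440). Where its call was lost, the adjusted p was 0.0517 to 0.139 (0.0533 to 0.139 without 1 of the 6 samples). The log2 change of Plaur kept its sign in all 16 other settings, between -0.26 and -0.17.

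**Figure D1:**
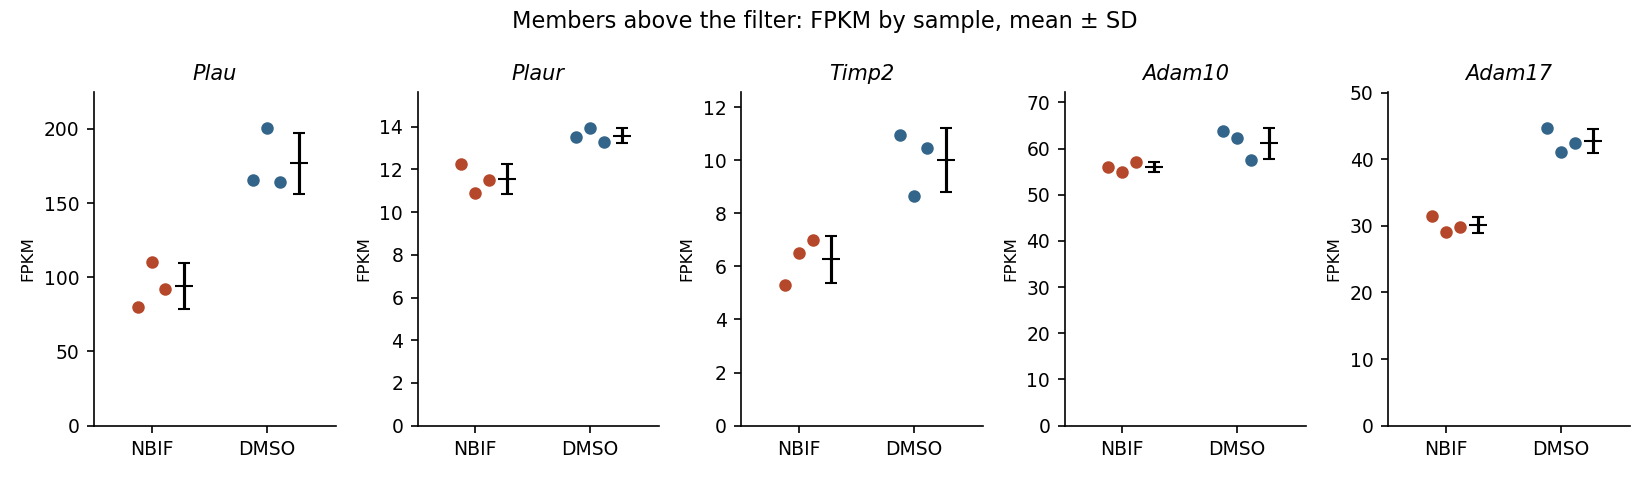
FPKM (vertical axes, from 0, each panel on its own scale) of the 5 members with a mean of at least 1 FPKM in the NBIF samples (left in each panel) and the DMSO samples (right), 1 point per sample, with the mean and SD beside them. The groups do not overlap in any panel. Plau and Adam17 are well separated. The nearest values with NBIF and DMSO are 6.998 and 8.64 FPKM for Timp2, 12.3 and 13.3 FPKM for Plaur, and 57.0 and 57.4 FPKM for Adam10.

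The other activator and the inhibitor were barely detected. Plat had 0.0811, 0.0896 and 0.117 FPKM in the NBIF samples, against 0.0398, 0.239 and 0.377 FPKM in the DMSO samples. The DMSO samples lay on both sides of the NBIF samples, and the difference in mean log2(FPKM + 1) was -0.14 (exact permutation test, two-sided, p = 0.40). Serpinb2 was listed at 0 in all 3 NBIF samples and in DMSO 1, with 0.0340 FPKM in DMSO 2 and 0.0701 FPKM in DMSO 3 (difference of -0.05, exact permutation p = 0.40). With 3 samples against 3, this exact permutation test cannot go below p = 0.10.

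Within each sample, the Plau level was 6.50, 10.1 and 7.99 times the Plaur level with NBIF, against 12.3, 14.4 and 12.3 times with DMSO. On the scale of log2(FPKM + 1), Plau minus Plaur was 2.91 ± 0.31 with NBIF and 3.60 ± 0.13 with DMSO (SD, n = 3 each), a difference of -0.69 (exact permutation test, two-sided, p = 0.10, and 0.10 after adjustment over 5 pairs of members, the smallest it can give). The groups did not overlap. Plau minus Serpinb2 was 6.56 ± 0.23 with NBIF and 7.42 ± 0.17 with DMSO (difference of -0.86; exact permutation p = 0.10, adjusted 0.10). Because Serpinb2 was near 0, this difference is nearly that of Plau alone.

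Of the TIMPs, only Timp2 was above the filter in these libraries. Timp2 had 5.29, 6.51 and 6.998 FPKM in the NBIF samples, against 10.9, 8.64 and 10.4 FPKM in the DMSO samples. The nearest samples were NBIF 3 and DMSO 2, and the groups did not overlap. The mean with NBIF was 0.626 times that with DMSO and the log2 change was -0.60 ± 0.11 (SE, limma adjusted p = 0.00753), and the call held under all 16 other settings (adjusted p up to 0.0325). Its log2 change ranged over these from -0.69 to -0.41, the smallest with a pseudocount of 5, which compresses genes of this level.

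Timp1, a secreted inhibitor often induced by inflammatory signals, had 0.04998, 0.106 and 0.112 FPKM in the NBIF samples, against 0.0559, 0.0584 and 0.102 FPKM in the DMSO samples. The groups overlapped, and the difference in mean log2(FPKM + 1) was 0.02 (exact permutation test, two-sided, p = 0.60). Timp3, which binds to the matrix, was listed at 0 in NBIF 1, NBIF 3 and DMSO 3, with 0.0394 FPKM in NBIF 2, 0.0352 FPKM in DMSO 1 and 0.0646 FPKM in DMSO 2. Its difference was -0.03 (exact permutation p = 0.70). The overlapping gene Syn3 had 0.0726 to 0.0782 FPKM with NBIF and 0.0425 to 0.0930 FPKM with DMSO, of the same order as Timp3.

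Timp2 therefore made up 97.8% to 99.1% of the summed level of Timp1, Timp2 and Timp3 with NBIF and 98.6% to 99.2% with DMSO. Their sum was 5.34, 6.66 and 7.11 FPKM in the NBIF samples, against 11.03, 8.77 and 10.5 FPKM in the DMSO samples. Timp1 minus Timp2 on the log2(FPKM + 1) scale was -2.73 ± 0.13 with NBIF and -3.35 ± 0.16 with DMSO (SD, n = 3 each), a difference of 0.62 (exact permutation p = 0.10, adjusted 0.10). Timp2 minus Timp3 was 2.84 ± 0.17 with NBIF and 3.41 ± 0.20 with DMSO, a difference of -0.57 (exact permutation p = 0.10, adjusted 0.10). Both are nearly the difference of Timp2 alone, since the other TIMPs were near 0.

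**Figure D2:**
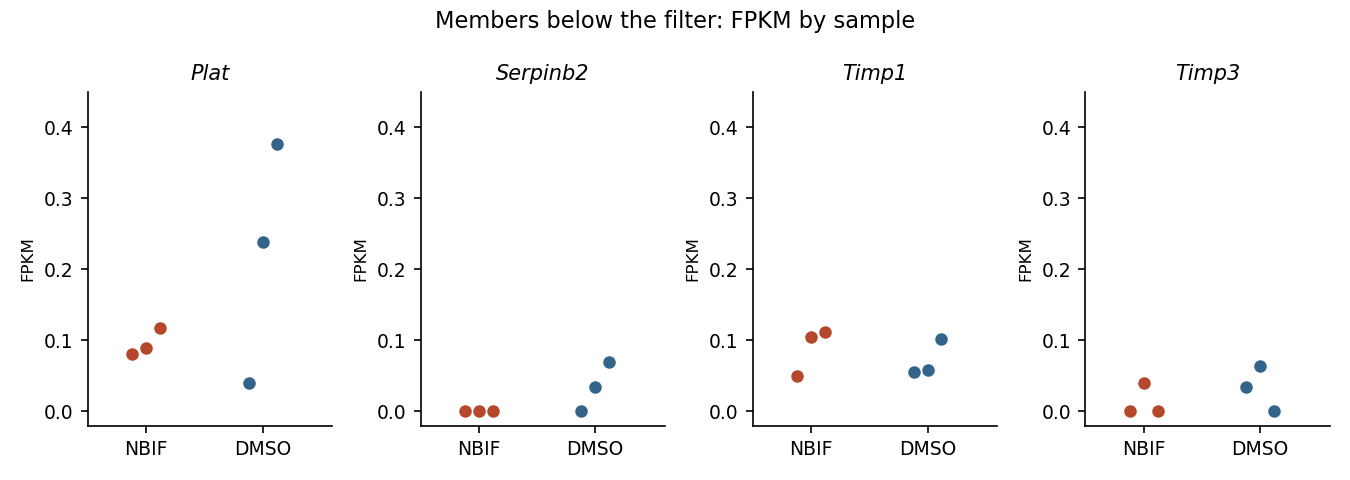
FPKM (vertical axes, the same in all panels) of the 4 members below the filter in the NBIF samples (left in each panel) and the DMSO samples (right), 1 point per sample. The groups overlap in every panel, and the highest value is 0.377 FPKM, for Plat in DMSO 3.

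The sheddases had changes of unequal size. Adam17 had 31.4, 29.1 and 29.8 FPKM in the NBIF samples, against 44.7, 41.0 and 42.5 FPKM in the DMSO samples. The samples of each group lay close together and far from the other group. The mean with NBIF was 0.704 times that with DMSO and the log2 change was -0.49 ± 0.06 (SE, limma adjusted p = 0.000676), and 4.18% of genes tested had a larger absolute change. The call held under all 16 other settings (adjusted p up to 0.00553), with log2 changes from -0.53 to -0.44. Iah1, which shares exon bases with the end of Adam17, had 5.83, 5.97 and 5.59 FPKM in the NBIF samples, against 7.70, 7.01 and 6.97 FPKM in the DMSO samples, and its part in the Adam17 values was not tested.

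Adam10 had 56.0, 54.9 and 57.0 FPKM in the NBIF samples, against 63.8, 62.2 and 57.4 FPKM in the DMSO samples. DMSO 3 lay just above the NBIF samples. The log2 change was -0.12 ± 0.05 (SE; limma adjusted p = 0.141), with a 95% interval from -0.25 to -0.00299 that carries no correction for the number of genes. Without DMSO 3 the log2 change was -0.17 and passed the test (adjusted p = 0.0352), and it did not pass under the other 15 settings.

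The ratio of the sheddase levels was higher in each NBIF sample than in each DMSO sample. Adam10 was 1.78, 1.89 and 1.91 times Adam17 in the NBIF samples, against 1.43, 1.52 and 1.35 times in the DMSO samples. Adam10 minus Adam17 on the log2(FPKM + 1) scale was 0.87 ± 0.05 with NBIF and 0.51 ± 0.08 with DMSO (SD, n = 3 each), a difference of 0.37 (exact permutation test, two-sided, p = 0.10, adjusted 0.10). The groups did not overlap, and the difference was 0.33 to 0.41 under 9 other settings.

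**Figure D3:**
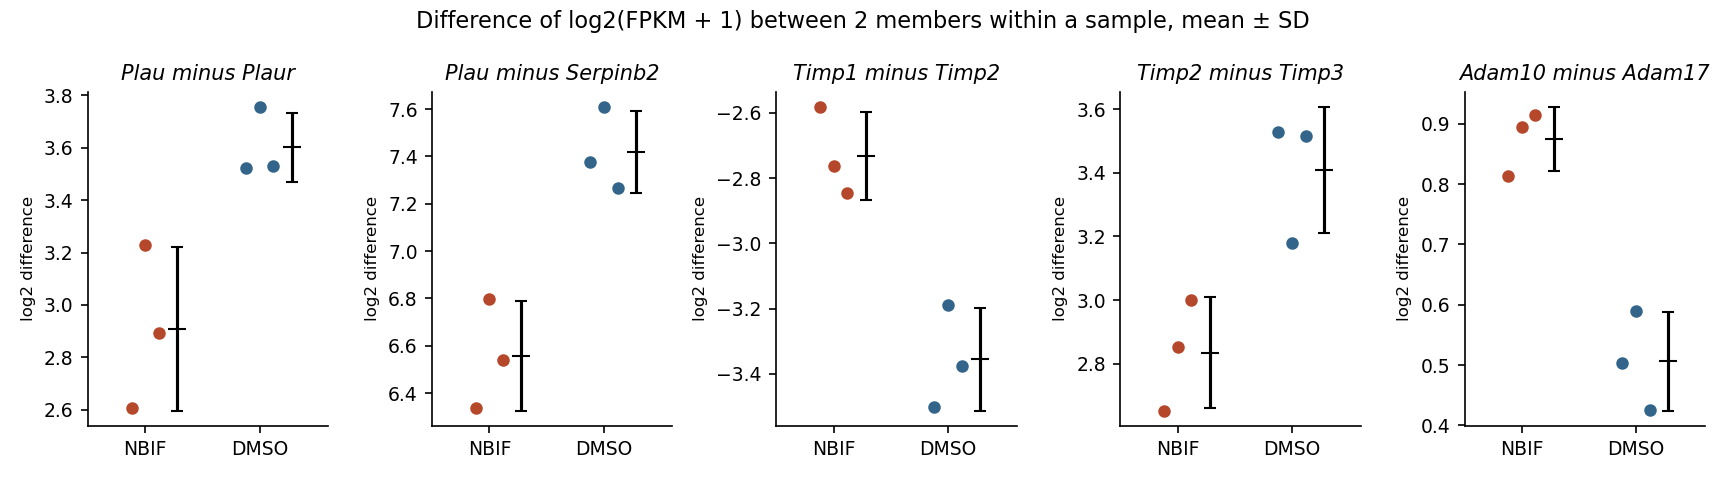
Difference of log2(FPKM + 1) between 2 members within a sample (vertical axes, which do not start at 0 and differ between panels) for 5 pairs, in the NBIF samples (left in each panel) and the DMSO samples (right), 1 point per sample, with the mean and SD beside them. The groups do not overlap in any of the 5 pairs. In the pairs that hold Serpinb2, Timp1 or Timp3, which were near 0, the difference is nearly that of Plau or Timp2 alone. Adam10 minus Adam17 lies higher with NBIF (0.87 ± 0.05) than with DMSO (0.51 ± 0.08).

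**Figure D4:**
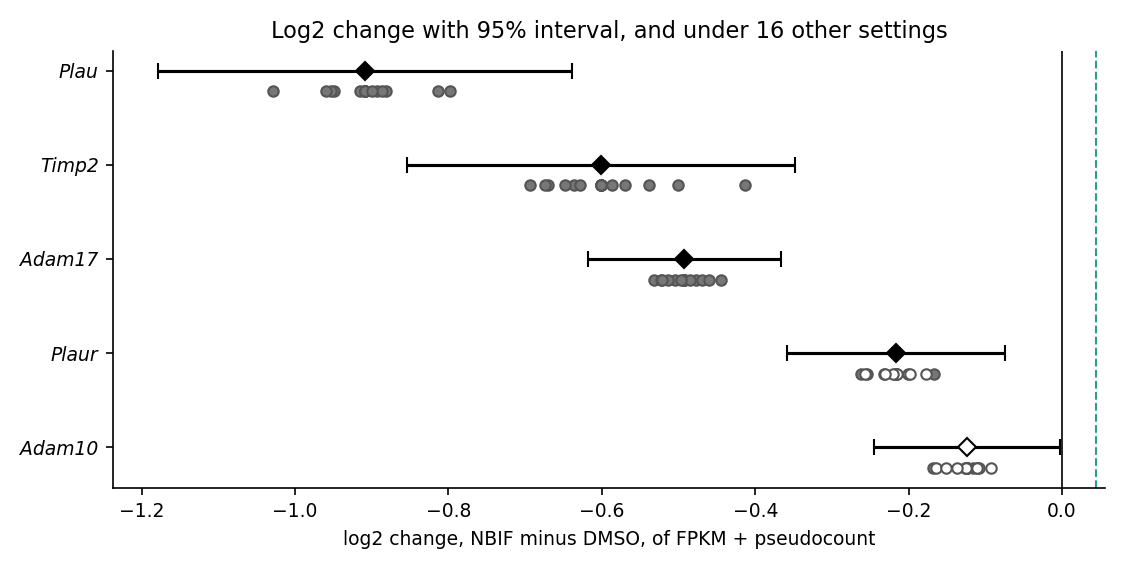
Log2 change of FPKM plus a pseudocount, NBIF minus DMSO (horizontal axis), of the 5 members tested: diamonds with bars are the reported value and its 95% interval, and the circles under each are 16 other settings, filled where the adjusted p is under 0.05 and open where it is not. The dashed line is the median of all genes tested (0.04). Plau, Timp2 and Adam17 are filled throughout, while Plaur is open in 9 settings and Adam10 is filled only without DMSO 3.

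Other genes of the plasminogen system moved both ways. Of 31 genes on this list, 19 were tested, of which 7 were lower, 2 were higher and 10 did not pass. Over all genes tested, 8.08% were lower and 10.5% were higher, which are also the shares to set beside the lists that follow. The counts of the lists were not tested against these shares. The median log2 change of the tested genes was -0.09, beside 0.04 for all genes tested. Anxa2, whose product annexin A2 binds plasminogen activators and plasminogen at the cell surface, had 77.6 ± 3.75 FPKM with NBIF and 99.1 ± 2.79 FPKM with DMSO, a log2 change of -0.35 (limma adjusted p = 0.00267). Itgam, an integrin subunit of macrophages that associates with the urokinase receptor, fell by 0.60 on the log2 scale, and F3 (tissue factor, which starts blood clotting) fell by 0.59. The F3 call was lost without NBIF 1 (adjusted p = 0.0537) and without a filter on low values (0.0506).

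Among serine protease inhibitors and proteases of the list, Serpinb9, an intracellular inhibitor of granzyme B, had 56.6 ± 1.25 FPKM with NBIF and 27.2 ± 2.97 FPKM with DMSO, a log2 change of 1.03 (limma adjusted p = 8.26e-05). The mouse genome holds several close copies of this gene, so how reads were split between them is uncertain. Serpinb8 fell by 0.69 on the log2 scale. St14, which encodes the membrane serine protease matriptase, an activator of pro-urokinase, had 7.98 ± 0.742 FPKM with NBIF and 5.63 ± 0.419 FPKM with DMSO, a log2 change of 0.44. Plg, the gene of plasminogen itself, which is made mainly by the liver, was listed at 0 in all 6 samples.

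The list of matrix metalloproteinases, further inhibitors and basigin held 24 genes, of which 5 were tested: 2 were lower (Mmp9 and Mmp19), 1 was higher (Bsg, which is no metalloproteinase) and 2 did not pass (median log2 change of -0.00634). Mmp9, a gelatinase strongly expressed by osteoclasts, had 60.4 ± 5.70 FPKM with NBIF and 224 ± 15.2 FPKM with DMSO. The Mmp9 level was 10.2, 9.73 and 9.15 times that of Timp2 in the NBIF samples, against 20.3, 24.2 and 23.0 times in the DMSO samples. This ratio was lower in each NBIF sample than in each DMSO sample, and it was not tested, and its size rests on the uncertain gene lengths. Mmp19 had 11.1 ± 0.601 FPKM with NBIF and 14.7 ± 0.806 FPKM with DMSO (log2 change of -0.37, limma adjusted p = 0.00630). Bsg, whose product basigin is an inducer of metalloproteinases, had a log2 change of 0.18 (adjusted p = 0.0498), a call lost under 12 of 16 other settings (adjusted p up to 0.156), among them 5 of the 6 fits that leave out a sample (all but the one without DMSO 3). Mmp14, whose product forms a complex with TIMP2 that activates pro-MMP2, was below the filter, at 0.0655 ± 0.0474 FPKM with NBIF and 0.127 ± 0.0264 FPKM with DMSO. Timp4 and Reck, a membrane-anchored inhibitor, were listed at 0 in all 6 samples.

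Of 11 other ADAM genes, 3 were tested, of which 1 was lower, 1 was higher and 1 did not pass (median log2 change of -0.00293). Adam8, a metalloprotease of myeloid cells and osteoclasts, had 68.1 ± 5.87 FPKM with NBIF and 120 ± 13.0 FPKM with DMSO, a log2 change of -0.81 (limma adjusted p = 0.000543). Adam15 had 65.5 ± 5.97 FPKM with NBIF and 54.4 ± 3.60 FPKM with DMSO, a log2 change of 0.26 (adjusted p = 0.0428). The Adam15 call was lost under 8 of 16 other settings, among them the fits without NBIF 1 (adjusted p = 0.128), NBIF 3 (0.0817), DMSO 1 (0.121) and DMSO 2 (0.108).

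Of 16 partners and activators of ADAM10 and ADAM17, 12 were tested, of which 3 were lower, 0 were higher and 9 did not pass (median log2 change of -0.07). Rhbdf2, which encodes iRhom2, the carrier that brings ADAM17 to the surface of myeloid cells, had 50.6 ± 2.90 FPKM with NBIF and 60.6 ± 1.69 FPKM with DMSO (log2 change of -0.26, limma adjusted p = 0.0139). That call was lost without NBIF 1 (0.0600), NBIF 3 (0.0598) or DMSO 1 (0.0525). Furin, which encodes a convertase that removes the prodomain of both sheddases, had 45.6 ± 1.51 FPKM with NBIF and 57.5 ± 4.32 FPKM with DMSO (log2 change of -0.33, adjusted p = 0.00877). Cd9, a tetraspanin that binds ADAM17, had 51.3 ± 2.46 FPKM with NBIF and 75.6 ± 1.92 FPKM with DMSO (log2 change of -0.55). Of the 6 tetraspanins that escort ADAM10, 4 were tested and 0 passed.

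Among 47 surface proteins that sheddases cut, 25 were tested, of which 8 were lower, 5 were higher and 12 did not pass (median log2 change of -0.05). The count of lower genes was 4 without NBIF 1 and 5 without NBIF 2, NBIF 3 or DMSO 1. Hbegf, the precursor of a growth factor released by ADAM17, had 55.0 ± 12.01 FPKM with NBIF and 103 ± 11.3 FPKM with DMSO (log2 change of -0.91, limma adjusted p = 0.00317). Cxcl16, a membrane-bound chemokine released by ADAM10, had 2.84 ± 0.506 FPKM with NBIF and 8.14 ± 0.968 FPKM with DMSO (log2 change of -1.25, and -0.74 with a pseudocount of 5). Csf1r, the receptor for macrophage colony-stimulating factor, fell by 0.46 on the log2 scale and Ptprc (CD45) fell by 0.42, and both are also macrophage markers. Icam1, an adhesion molecule, had 104 ± 4.15 FPKM with NBIF and 64.8 ± 2.19 FPKM with DMSO (log2 change of 0.67), and the Notch ligand gene Jag1 had 54.9 ± 1.14 and 35.3 ± 2.48 FPKM (log2 change of 0.63). Tnf did not pass the test (log2 change of -0.17, adjusted p = 0.269).

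**Figure D5:**
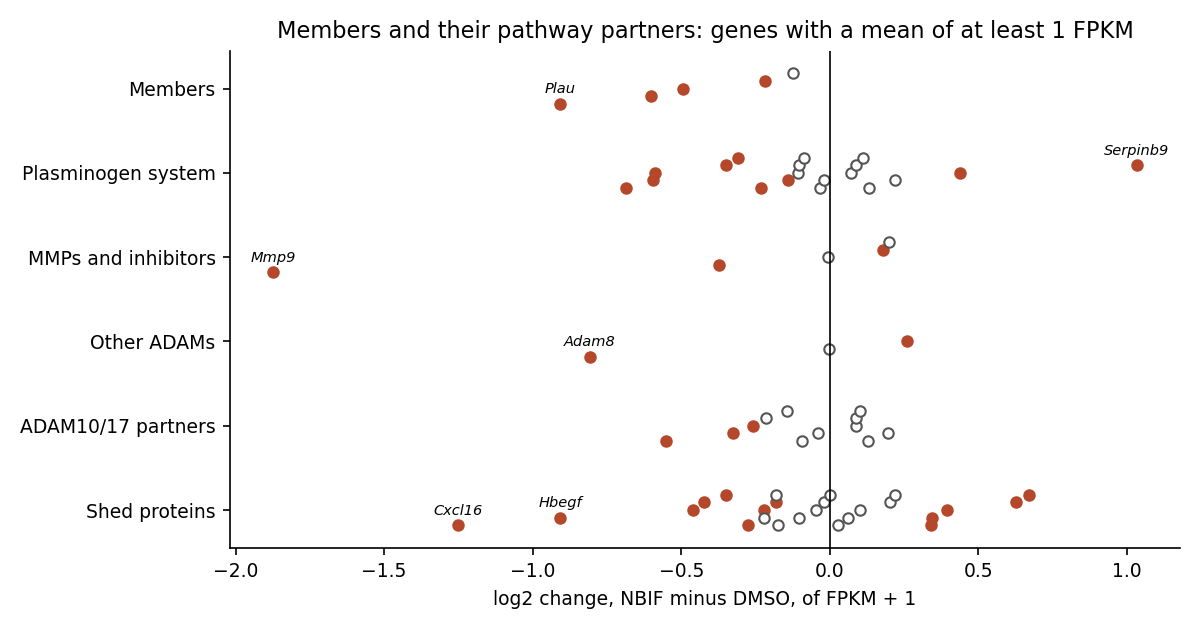
Log2 change of FPKM + 1, NBIF minus DMSO (horizontal axis), of each tested gene of the members and of 5 lists of related genes (rows), filled where the adjusted p is under 0.05 and open where it is not. Genes with an absolute change over 0.8 are named. The plasminogen list and the shed proteins hold filled points on both sides of 0, and among the partners of ADAM10 and ADAM17 the 3 filled points are all lower.

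Of all genes tested, the 3 whose pattern over the 6 samples was most like that of Plau were Arhgap31, Hbegf and Gsap, by the Euclidean distance of log2(FPKM + 1) centred on each gene's mean (0.104, 0.161 and 0.165). Hbegf had 46.4, 68.8 and 49.96 FPKM in the NBIF samples, against 101, 115 and 92.9 FPKM in the DMSO samples. Like Plau it was highest in NBIF 2 and in DMSO 2 within each group. The nearest to Timp2 were Tmem98, Cldn11 and Mycl (0.202, 0.214 and 0.220), and to Adam17 they were Dbp, Tanc2 and Jdp2 (0.0772, 0.0808 and 0.0935). The nearest to Plaur were H2aj, Rab3il1 and Nenf (0.0532, 0.0557 and 0.0588). A gene with a small change has many near neighbours by this measure, so distances are read within a member and not between members.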

How the data were processed

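RNA was isolated with TRIzol before library preparation, per the labels' protocols. The authors deposited 1 table of FPKM values, 1 per gene symbol and sample, and all 6 of its sample columns were used. The submitters' processing notes name, without a role, DESeq2 1.20.0, featureCounts 1.5.0-p3, HISAT2 2.0.5, fastp and CASAVA 1.8. They also name the human build GRCh38, while 97.9% of the symbols are mouse gene names in GENCODE M21, so the build and gene lengths behind the values are uncertain. As FPKM are relative, abundant genes that change move all others.

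The test was limma 3.58.1 in R 4.3.3 (lmFit and eBayes with a trend, two-sided) on log2(FPKM + 1) in all 6 samples, for genes averaging 1 FPKM or more, at an adjusted p under 0.05. Fold changes on this scale understate those of low genes. Members below the filter and pairs of members were compared by exact permutation over the samples. Groups come from the treatment label. Genes named beside the members are up to 6 called genes with the largest change in each list, and the 3 tested genes nearest in pattern to each called member. Plg, Mmp14, Timp4, Reck, Tnf, Calcr and the other cell type markers named beside the FPKM sums, apart from Mmp9, lie outside this rule. They were named after their values were seen. The members and lists were chosen with earlier results of these data known. Alternatives were pseudocounts of 0.1 and 5, no filter or one at 5 FPKM, the replicate number as a block, 1 sample left out at a time, quantile or median-ratio scaling, equal sums and other variance priors. Annotation (GENCODE M21) and promoter sequences (RefSeq, GRCm38.p6; 7 of the 9 members matched) were not used to make the values. Some genes of the lists enter the counts and are not reported here by name.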

Additional observations from a re-analysis of the deposited data

How the results depend on the processing

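The calls of Plau, Timp2 and Adam17 held under all 16 alternatives, Plaur lost its call under 9, and Adam10 passed under 1. The number of members called was 3 or 4 throughout. The number of genes called over the whole table was 999 to 1891 when 1 sample was left out (999 without NBIF 1, 1150 without NBIF 2, 1150 without NBIF 3, 1173 without DMSO 1) and 1497 to 1932 under the other alternatives, against 1850. With the replicate block, 1632 genes and 3 members were called, and the call of Plaur was lost (adjusted p = 0.0742). The limma adjusted p of Plau was 0.000152 with the block and 0.00147 without it, and it rose for each other member tested. The values do not settle whether the replicate numbers pair the samples. Same-numbered samples correlated in their deviations from the group means at 0.0784, 0.126 and 0.0355, and samples of unlike number at -0.177 to 0.0974. NBIF 1 and DMSO 3 correlated best with each other, and the other samples with their own number. Values near 0 depend on the pseudocount. With a pseudocount of 0.1, the differences of the members below the filter were -0.53 for Plat, -0.40 for Serpinb2, 0.13 for Timp1 and -0.22 for Timp3, with Plau minus Serpinb2 at -0.52 and Timp1 minus Timp2 at 0.80. With a pseudocount of 5, Serpinb2 was at -0.00995 and Timp1 minus Timp2 at 0.42. Leaving out a sample gave -0.25 to -0.05 for Plat, -0.07 to -0.02 for Serpinb2, 0.00750 to 0.05 for Timp1 and -0.05 to -0.00634 for Timp3. Under these alternatives, no log2 change or difference of the members, or of the list genes named by rule, changed sign. List medians and level ratios were not recomputed. The fits covered every gene, but log2 changes of single genes outside the naming rule are not reported under them. Depth is unknown, so no counting error can be given for the 4 members near 0. Adjusted for the relative depth, Plat was 2.00, 1.99 and 3.01 times its lowest nonzero value in NBIF 1, 2 and 3. In DMSO 1, 2 and 3 it was 1, 6.53 and 9.96 times that value. The highest multiple was 1.99 for Serpinb2, 2.33 for Timp1 and 2.02 for Timp3. These differences therefore rest on a few small steps, and the number of fragments behind a step is unknown.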

Other observations

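Other genes whose products are shed, chosen here after their values were seen, also passed the test in opposite directions. Cd74, the invariant chain of class II antigen presentation, had a log2 change of 0.40 (limma adjusted p = 0.00143), the lipoprotein and sorting receptor gene Sorl1 one of 0.35 (0.0333) and the tumour necrosis factor receptor gene Tnfrsf1b one of 0.34 (0.0115). Sdc1 (syndecan 1, a heparan sulfate carrier) had a log2 change of -0.35 (0.0122), the interleukin 6 receptor gene Il6ra one of -0.27 (0.0349), the microglial and osteoclast receptor gene Trem2 one of -0.22 (0.0415) and App, the amyloid precursor, one of -0.18 (0.0440). The calls of Sdc1, Il6ra, Trem2 and App were all lost without NBIF 1. The number of shed proteins called higher was 4 to 6 over the 16 other settings. Among partners of the urokinase receptor and annexin A2, the integrin subunit gene Itgb2 had 70.7 ± 1.40 FPKM with NBIF and 87.9 ± 5.17 FPKM with DMSO (SD, n = 3 each, limma adjusted p = 0.00562). S100a10, whose product pairs with annexin A2, had 339 ± 5.92 and 398 ± 5.24 FPKM (adjusted p = 0.00429). Both were chosen after their values were seen. Of the other integrin subunit genes on the plasminogen list, Itgam was lower, as given above. Itgav, Itgb3 and Itgb5 did not pass (log2 changes of 0.07, -0.11 and -0.03, limma adjusted p = 0.555, 0.407 and 0.734). Lrp1 was higher in each NBIF sample than in each DMSO sample and did not pass (log2 change of 0.22, adjusted p = 0.0645).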
